A study of Mus musculus with 6 samples.

Results

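Cluster 0 of the control epithelium is the most numerous of the 15 clusters into which the authors divided epithelial cells of control mouse uteri. Its cells carried high levels of immediate-early genes on a luminal background, as did those of luminal clusters 7 and 11. Clusters 3 and 14, outside the luminal ones, held high levels too. The members of cluster 0 were taken from the deposited metadata. They were every cell given the number 0 in the clustering of control epithelial cells and holding a column of counts. These were 482 of the 2583 control epithelial cells with a cluster (18.7%, exact Clopper-Pearson 95% interval 17.2 to 20.2). The metadata list 2629 control cells with a cluster, of which 46 have no column of counts, and 5 of those 46 are in cluster 0. The cluster was set against clusters 1, 2, 5, 6, 7, 9, 10 and 11, the 8 other luminal clusters, which hold 1426 cells together.

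RNA was measured in uteri of CD-1 mice aged 12 months that had been given diethylstilbestrol (DES, a synthetic estrogen) in corn oil at 1 mg/kg/day, or corn oil alone (CO), on days 1 to 5 after birth. Single cells were captured from 1 CO library, which pools 2 mice in estrus, and from 1 DES library, which pools 4 mice. All cells of cluster 0 come from the CO library. The 2 CO mice carry no mark in the counts, so a difference between clusters and a difference between those mice cannot be told apart. Uteri were dissociated with trypsin, including a warm step, before capture. The 4 spatial sections, 2 CO and 2 DES, each come from 1 mouse.

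The luminal epithelium is the sheet of cells that lines the uterine cavity, and it responds to estrogen with growth and secretion. Immediate-early genes such as Fos and Egr1 encode transcription factors whose RNA appears within minutes of a stimulus, without new protein synthesis, and decays quickly. Growth factor signals reach them through the MAP kinase cascade, inflammatory signals act through NF-kB, and both routes switch on their own inhibitors. The same genes are also known to be switched on in many cell types when tissue is taken apart with enzymes in the warm.

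The label was first checked against its markers. Epcam, an adhesion protein of epithelial cells, stood at 1034 CPM (the cluster's summed UMIs scaled to a total of 1000000, exact Poisson 95% interval 1019 to 1049) in cluster 0 and at 1059 CPM in the other luminal clusters pooled. Krt18, a keratin of simple epithelia, stood at 689 CPM (676 to 701) and 633 CPM. With each cell thinned to 3000 UMIs, 93.9% of cluster 0 cells held an Epcam UMI and 85.1% a Krt18 UMI, and without thinning every cell held both. In control stromal cells, which should lack both genes, the thinned shares were 21.0% and 19.6%, and 45.4% and 47.3% without thinning. Stromal cells had a median of 8726.5 UMIs and cluster 0 cells a median of 27128. Genes of the gland were far below their peak. The mature gland list summed to 53.5 CPM in cluster 0 against 85831 CPM in the control cluster where it was highest, and the developing gland list to 3076 against 72074 CPM. Both markers thus went with the epithelial part of the label. The authors had selected epithelial cells by Krt18, so its presence was set in advance, and neither marker checks the luminal part. The luminal genes of the study, which its authors picked from these same data, summed to 803 CPM in cluster 0 and 835 CPM in the other luminal clusters. Cluster 0 ranked 6 among the 9 luminal clusters for them, and the lowest of the 15 clusters held 48.5 CPM.

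Cluster 0 held 17264769 UMIs. Its cells had a median of 4937 genes, and a median of 8.06% of their UMIs came from mitochondrially encoded genes, below all 8 other luminal clusters (8.70 to 18.4%). Median UMIs per cell in those 8 ran from 16393 to 34711.5, with 3 of them above cluster 0. The median sequencing saturation was 0.57. The CO and DES libraries share 180 cell barcodes, of which 1 is in cluster 0. Among markers of other cell types, the stromal list summed to 474 CPM in cluster 0 and to 359.6 CPM in the other luminal clusters (289.6 to 685), of which the proteoglycan gene Dcn made up 269.5 and 189 CPM. The smooth muscle list stood at 28.4 and 16.3 CPM and was highest in cluster 0 of the 9 luminal clusters, with the endothelial list at 5.68 CPM, the pericyte list at 6.89 CPM, the lymphocyte list at 1.1 CPM and the myeloid list at 68.2 CPM. The mesothelial list, mostly Krt19, stood at 1580.5 and 1397 CPM and was highest in cluster 0 of all 15 clusters, and the part of RNA from other cells in the results was not tested. Every interval given here covers counting error only. With 1 library and clusters formed on the same counts, no difference between clusters has a replicate check, and none was tested.

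The promoters of 5 of the genes described below are shown, 4 with a letter match to the NF-kB site and 1, that of Csrnp1, without, so that the letters can be seen beside the levels. Each run is the RefSeq sequence on GRCm38.p6 upstream of the transcript's start, read 5′ to 3′ along the gene's strand. The GENCODE gene begins 4 bases before the RefSeq start in Cxcl1 and 28 bases before it in Cxcl2, and these bases were trimmed, so that those runs end that far short of the RefSeq start. Capitals mark the match, which lies, counted from the RefSeq start, 214 to 205 bases before it in Fos, 29 to 20 in Nfkbia, 71 to 61 in Cxcl1 and 97 to 87 in Cxcl2. In Cxcl1 and Cxcl2 the capitals are 2 overlapping matches, and the same 11 letters stand in both. The windows are chr12:85473640-85473889 on the plus strand for Fos, chr12:55492648-55492897 on the minus strand for Nfkbia, chr9:119984743-119984992 on the minus strand for Csrnp1, chr5:90890995-90891240 on the plus strand for Cxcl1 and chr5:90903649-90903870 on the plus strand for Cxcl2. Nfkbia, Cxcl1 and Cxcl2 were picked for this display after their values were seen, so 4 of 5 does not show how common the site is. In the promoter search described below, the NF-kB site was matched in 16.4% of 110 promoters of genes at least 1.5-fold higher in cluster 0. Among the 2782 promoters of all genes compared, the share was 5.61%.
Fos: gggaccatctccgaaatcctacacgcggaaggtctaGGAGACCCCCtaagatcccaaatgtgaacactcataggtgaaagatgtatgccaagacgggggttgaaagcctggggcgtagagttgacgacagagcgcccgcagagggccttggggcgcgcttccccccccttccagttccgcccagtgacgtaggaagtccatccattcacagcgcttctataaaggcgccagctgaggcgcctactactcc
Csrnp1: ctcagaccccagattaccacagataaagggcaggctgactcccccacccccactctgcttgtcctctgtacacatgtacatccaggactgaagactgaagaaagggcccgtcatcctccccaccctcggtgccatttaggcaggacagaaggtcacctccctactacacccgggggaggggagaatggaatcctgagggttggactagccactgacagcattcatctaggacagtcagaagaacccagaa
Nfkbia: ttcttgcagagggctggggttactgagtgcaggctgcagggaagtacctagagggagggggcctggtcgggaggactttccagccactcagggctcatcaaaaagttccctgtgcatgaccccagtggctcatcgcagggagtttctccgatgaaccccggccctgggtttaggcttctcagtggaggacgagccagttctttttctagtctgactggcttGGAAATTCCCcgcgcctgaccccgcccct
Cxcl1: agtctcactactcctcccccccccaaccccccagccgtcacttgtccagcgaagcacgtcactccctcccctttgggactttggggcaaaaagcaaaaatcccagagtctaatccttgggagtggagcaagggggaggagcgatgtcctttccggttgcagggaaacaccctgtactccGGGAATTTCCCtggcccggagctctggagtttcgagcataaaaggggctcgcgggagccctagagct
Cxcl2: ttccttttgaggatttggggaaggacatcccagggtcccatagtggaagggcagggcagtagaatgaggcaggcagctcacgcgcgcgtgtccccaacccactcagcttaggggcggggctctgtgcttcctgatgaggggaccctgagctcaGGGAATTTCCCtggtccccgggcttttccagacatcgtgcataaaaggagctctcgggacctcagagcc

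Between cluster 0 and the other luminal clusters pooled, 2842 genes reached 50 CPM on either side. Of these, 114 were at least 1.5-fold higher in cluster 0 (4.01%) and 11 were at least 1.5-fold lower (0.387%). The median ratio over the 2842 genes was 0.991. The higher genes were led by the cytokine-signalling inhibitor Socs3, the cytokine Il1a and the transcription factor Egr1. They included 54 of the 139 genes in the 8 lists of stimulus-responsive genes described below (immediate-early, early-response, NF-kB, cytokine, MAP kinase feedback, EGF ligand, heat shock and YAP target genes). Not all of the 139 reached 50 CPM. The lists were chosen with earlier results of these data known, so this overlap is only a description. The lower genes were led by 2 transcripts not named in the annotation used here, Yam1 and RP23-81C12.3. The 114 genes did not set cluster 0 apart from every luminal cluster. All 114 were above their level in each of clusters 1, 2, 6, 9 and 10, but cluster 7 exceeded cluster 0 for 97 of them, cluster 11 for 26 and cluster 5 for 5.

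**Figure D1:**
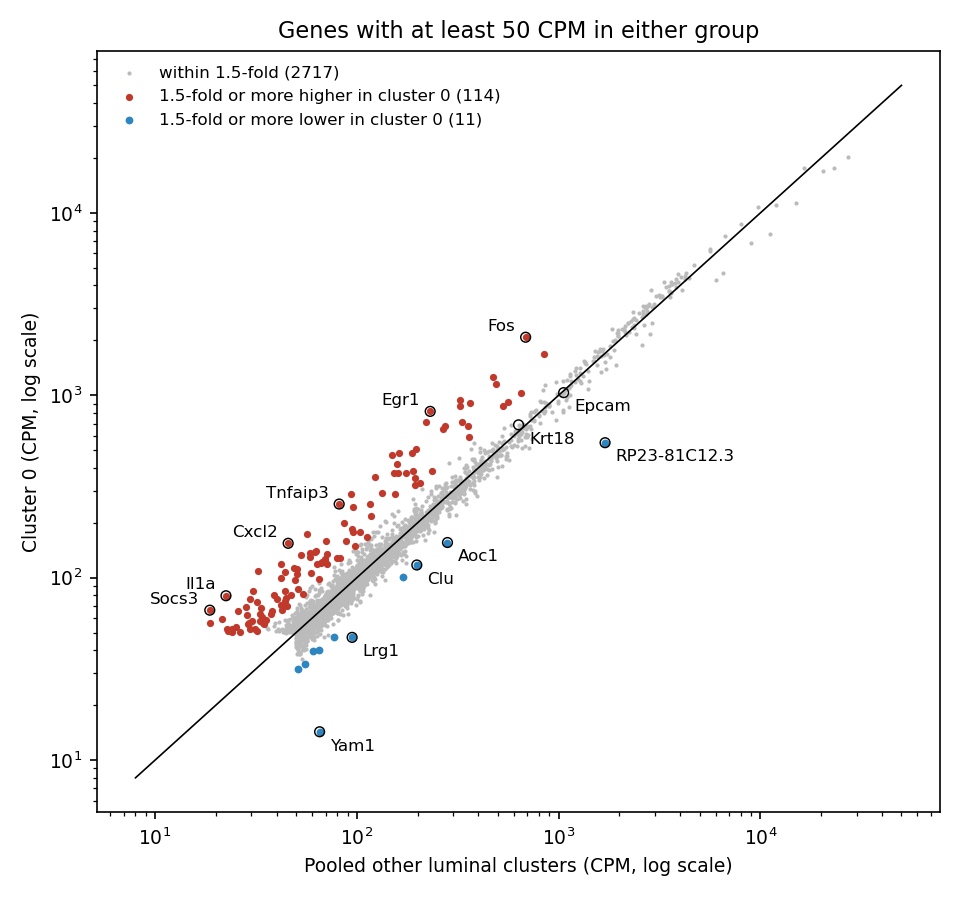
Each point is 1 of the 2842 genes with at least 50 CPM in either group, with its level in the other luminal clusters pooled on the horizontal axis and in cluster 0 on the vertical axis, both in CPM on log axes. The 114 genes at least 1.5-fold higher lie above the diagonal and the 11 at least 1.5-fold lower lie under it.

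The summed level of immediate-early transcription factors in cluster 0 was above that in clusters 1, 2, 6, 9 and 10. Of the 30 genes in the list, 21 reached 50 CPM and 16 of those were at least 1.5-fold higher, where 4.01% of all genes compared were. The list summed to 9995 CPM in cluster 0 and to 4431 CPM in the other luminal clusters (ratio 2.26, 95% interval 2.24 to 2.27). The 8 other luminal clusters ran from 2115 CPM in cluster 2 to 12710.4 CPM in cluster 7, with 9302 in cluster 11 and 6254 in cluster 5. Outside the luminal clusters, cluster 3 held 13151 CPM and cluster 14 10056 CPM.

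Fos (chr12:85473890-85477273, plus strand), the AP-1 subunit whose promoter is shown above, stood at 2081 CPM in cluster 0 (2059.7 to 2103). In the other luminal clusters it ran from 182 CPM in cluster 1 through a median of 381 to 2309.8 in cluster 7, and cluster 11 held 1968 CPM. Clusters 0, 7 and 11 thus formed the high end of Fos, cluster 5 lay between at 1030.3 CPM, and the other 5 luminal clusters were at 452 CPM or less. Egr1, a zinc-finger factor, stood at 816 CPM (803 to 829.9), against 40.1 CPM in cluster 1, a median of 124 and 937 CPM in cluster 7. Only cluster 7 was above cluster 0 among the luminal clusters. Csrnp1, a nuclear protein induced by serum, was at 56.5 CPM against 18.7 (ratio 3.02, 2.75 to 3.32).

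Of the other AP-1 subunits, Fosb, Junb, Jun and Jund passed the 1.5-fold limit and Fosl2 did not. Fosb stood at 507 CPM against 197, Junb at 879 against 324, Jun at 908 against 362 and Jund at 922 against 560.2. Klf6, a Kruppel-like factor, reached 1259.9 CPM against 473. Hes1, a repressor downstream of Notch, stood at 375 CPM and was higher in cluster 0 than in any of the other 14 control epithelial clusters. The 5 members that reached 50 CPM without passing the 1.5-fold limit were Fosl2, Klf4, Bhlhe40, Cebpb and Id1, with ratios from 0.8 for Id1 to 1.46 for Bhlhe40.

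Early-response regulators, which act on RNA decay, growth arrest and survival, had 15 of 17 members at 50 CPM or more that were at least 1.5-fold higher. Over all genes compared this share was 4.01%. The list summed to 6547 against 3086 CPM. Socs3, an inhibitor of JAK-STAT signalling, had the largest ratio of the 2842 genes. It stood at 66.4 CPM (62.6 to 70.3) in cluster 0 and at 18.7 in the other luminal clusters (ratio 3.55, 3.25 to 3.89), among which it ran from 8.69 to 59.9. No luminal cluster was above cluster 0 for Socs3, although cluster 3 was, at 478 CPM. Zfp36, which speeds the decay of AU-rich mRNAs such as those of cytokines, stood at 711 against 219.8 CPM. Ppp1r15a, a phosphatase subunit that restores translation after stress, stood at 288 against 93.0 CPM and Ier2 at 481 against 161 CPM, and both were above every other luminal cluster. Ier3 was the most abundant of the list at 1688 CPM against 847.

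Among NF-kB regulators at 50 CPM or more, 8 of 10 were at least 1.5-fold higher, beside 4.01% of all genes compared. The list summed to 2398 against 1127 CPM (ratio 2.13, 2.1 to 2.16). The 8 include inhibitors of the pathway. Nfkbia (chr12:55489410-55492647, minus strand) encodes the inhibitor that holds NF-kB in the cytoplasm. It stood at 1154 CPM in cluster 0 (1138 to 1169.8), and in the other luminal clusters from 315 through a median of 399.9 to 1094. That was the highest level of the 15 control clusters. Tnfaip3 (chr10:19000910-19015657, minus strand), the ubiquitin-editing inhibitor A20, stood at 253 CPM (246 to 261), and ran from 10.3 to 434 elsewhere, so that cluster 7 held more of it. The subunits of NF-kB itself differed less, with Rel at a ratio of 1.64, Rela at 1.43 and Nfkb1 at 1.19.

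Cytokines and chemokines split. Of the 10 members at 50 CPM or more, 5 were at least 1.5-fold higher and 5 were not, beside 4.01% higher of all genes compared. The sum was 1214 against 883 CPM (ratio 1.38). Cxcl2 (chr5:90903871-90905938, plus strand), a neutrophil attractant, stood at 154 CPM (149 to 160.4) against 45.7, and ran from 5.08 CPM in cluster 1 through a median of 32.7 to 154 in cluster 11. Clusters 0 and 11 were thus close for Cxcl2, and both stood above the other 7. Cxcl1 (chr5:90891241-90893115, plus strand), its neighbour on the chromosome and also a neutrophil attractant, stood at 174 against 56.8 CPM. Il1a, an alarm cytokine of epithelia, stood at 79.6 against 22.5 CPM (ratio 3.55, 3.26 to 3.85). Lif, an implantation cytokine, stood at 52.5 against 23.9 CPM, while Cxcl17 (306 against 364) and Ccl28 (48.6 against 71.7) were below the other luminal clusters without reaching 1.5-fold.

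Inhibitors of the MAP kinase route and a ligand that feeds it stood high side by side. Of 6 feedback inhibitors at 50 CPM or more, 4 were at least 1.5-fold higher, beside 4.01% of all genes compared. Phlda1, a negative regulator of receptor signalling, stood at 942 against 324 CPM, Errfi1, which binds and inhibits the EGF receptor, at 292 against 133, the ERK phosphatase Dusp5 at 119 against 42.0 and Dusp1 at 126 against 69.6. Hbegf, a ligand of the EGF receptor, stood at 421 CPM against 158, ranging from 30.6 to 771 in the other luminal clusters. The receptor gene Erbb3 was at 51.4 against 47.2 CPM, and Egfr was at 11.5 CPM. All 3 YAP targets at 50 CPM or more passed the limit, again beside 4.01% of all genes compared. Cyr61, 1 of the 3, stood at 652 against 266 CPM. The YAP list summed to 853 CPM in cluster 0, below 1334 in cluster 7 and 1094 in cluster 11.

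The stress lists had 0 to 2 higher members each, out of 6 to 12 at 50 CPM or more. Over all genes compared the share was 4.01%, and each list except the interferon list stood above it, on 1 or 2 genes. Among 11 heat shock chaperones at 50 CPM or more, 2 were at least 1.5-fold higher, the co-chaperone Dnajb1 at 468 against 149.8 CPM and Hspa1a at 80.8 against 39.0. Hspa1b, a near-identical copy of Hspa1a with which it can share reads, had a ratio of 1.46, and the constitutive Hspa8 had 1.09. Of 12 endoplasmic reticulum stress genes, Atf4 passed the limit at 168 against 112 CPM, and the chaperone Hspa5 had a ratio of 1.00. Of 6 p53 targets, Pmaip1, which promotes cell death, passed it at a ratio of 2.29 and Cdkn1a, an inhibitor of cyclin-dependent kinases, at 1.75. No member of the interferon list did, among 7 at 50 CPM or more.

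Genes of sterol synthesis and uptake had a higher sum in cluster 0, while most single members stayed within the limit. Of 16 at 50 CPM or more, 4 were at least 1.5-fold higher, where 4.01% of all genes compared were, and the list summed to 2544 against 1907 CPM (ratio 1.33, 1.32 to 1.35). Cluster 7 was above cluster 0 at 2828 CPM, and clusters 5 and 11 were below it at 2362 and 2285 CPM. The higher genes included Insig1, which retains the sterol sensor in the endoplasmic reticulum (184 against 94.9 CPM), Hmgcs1, an early enzyme of the mevalonate route (289 against 155), and Sc5d (81.8 against 54.1).

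**Figure D2:**
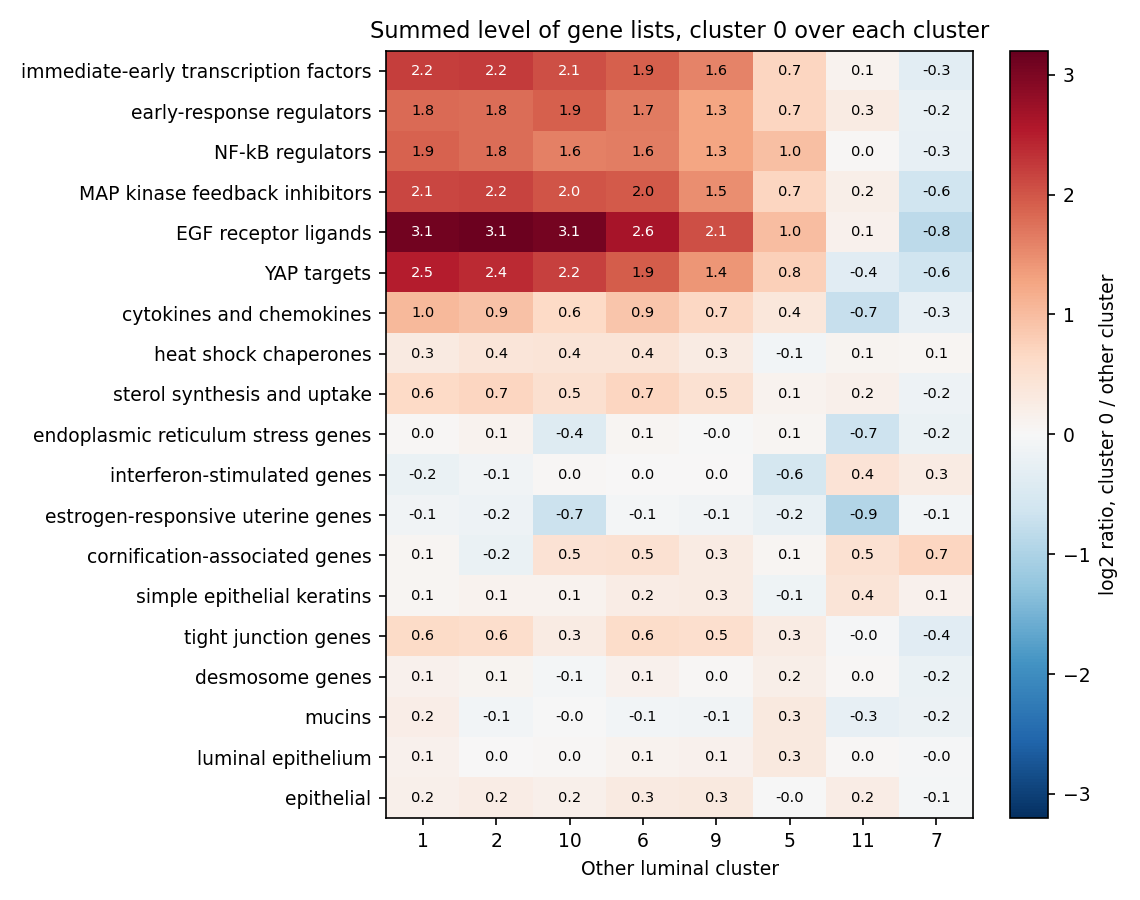
Each square gives, as a colour and a printed value, the log2 ratio of a gene list's summed CPM in cluster 0 to that in 1 other luminal cluster, with gene lists down the side and the 8 other luminal clusters along the bottom. The lists of immediate-early, early-response, NF-kB and MAP kinase feedback genes were above the levels of clusters 1, 2, 6, 9 and 10 and below those of cluster 7.

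In single cells of cluster 0, the 30 genes of the list made up a median of 1.04% of UMIs, with quartiles of 0.803 and 1.25% and a range of 0.132 to 1.85%. The median was 0.201% in cluster 1, 0.188% in cluster 2, 0.349% in cluster 5, 0.99% in cluster 11 and 1.22% in cluster 7. At or below 0.290%, the limit under which 358 of the 398 cells of cluster 1 lay, were 9 of the 482 cells of cluster 0. A high level was set at 0.603%, the limit that leaves 433 cells of cluster 0 above it by construction. It was reached by 1 cell of cluster 1 and 5 of the 276 cells of cluster 2, but by 131 of the 135 cells of cluster 7 and 79 of the 97 cells of cluster 11. Cluster 5 spanned the range, with 76 cells at the low level, 31 between and 61 at the high level. Outside the luminal clusters, the high level was reached by 192 of the 204 cells of cluster 3 and 22 of the 28 cells of cluster 14.

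**Figure D3:**
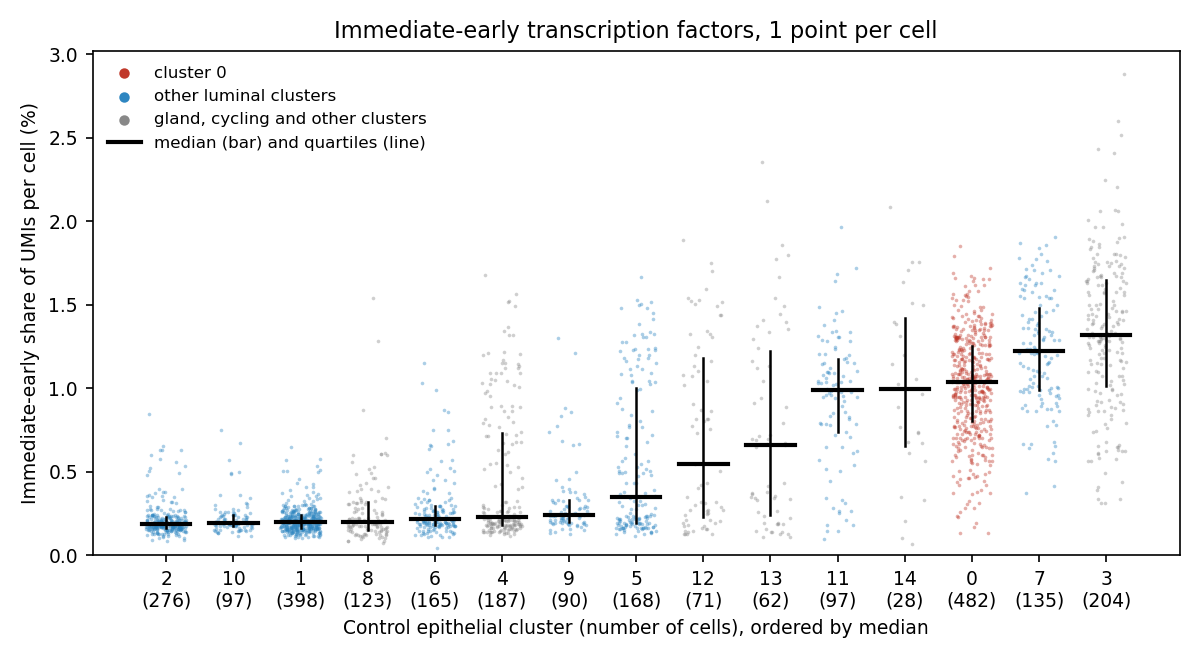
The vertical axis is the percent of a cell's UMIs that came from the 30 immediate-early transcription factors, each point is 1 cell, bars mark medians and lines the quartiles of each of the 15 control epithelial clusters, ordered by median. Cluster 0 (red) has a median of 1.04%, close to clusters 7 and 11 and above cluster 1 at 0.201%. The highest median is that of cluster 3, at 1.32%.

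Within cluster 0 the immediate-early share moved most with the early-response and MAP kinase feedback lists among the 6 lists compared. Over its 482 cells Spearman's rho with the share of early-response regulators was 0.77, with MAP kinase feedback inhibitors 0.71, with NF-kB regulators 0.48, with heat shock chaperones 0.19, with cytokines and chemokines 0.17 and with sterol genes 0.12, where all shares of a cell have its own total as denominator. For depth and mitochondrial share rho was -0.12 and -0.27, the latter larger in size than those of the last 3 lists. Split by depth into 3 parts of 161, 160 and 161 cells with medians of 18646, 27128 and 58575 UMIs, the list stood at 10889, 9885 and 9801 CPM.

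Among the genes described here, abundant ones were found in most cells and scarce ones in few. With each cell thinned to 3000 UMIs, which left out 4 cells of cluster 0, 96.4% of cluster 0 cells held a Fos UMI and 86.0% an Egr1 UMI (100 and 99.8% without thinning). In cluster 1 the thinned shares were 35.9% and 7.79% (91.5 and 53.5% without thinning). In control stromal cells they were 62.9% and 55.1% (84.5 and 70.9% without thinning), above cluster 1 and below cluster 0. The 48 of 478 cluster 0 cells with the most UMIs of a gene held 20.5% of the thinned Fos UMIs and 23.0% of those of Epcam, but 73.1% of those of Cxcl2, 70% of Il1a, 67.3% of Cxcl1 and 75% of the immediate-early factor Csrnp1. Low counts alone raise this figure, since a gene with few UMIs is found in few cells. Cxcl2 was seen in 21.8% of thinned cluster 0 cells (45.0% without thinning) and in 1.26% of cluster 1 cells (10.1%), against 3.3% of control stromal cells (8.22%). Tnfaip3 was seen in 44.1% (86.3% without thinning) of cluster 0 cells and in 4.27% (20.9%) of cluster 1 cells, against 12.4% (25.5%) of control stromal cells. Stromal cells held these genes too, so their shares are a comparison and not a floor.

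The 11 lower genes held 2 transcripts that stood apart. RP23-81C12.3 stood at 549.7 CPM in cluster 0 against 1699 CPM (ratio 0.324, 0.317 to 0.331), and ran from 798 CPM in cluster 7 through a median of 1835 to 2996 in cluster 6. Yam1 stood at 14.3 against 65.4 CPM (ratio 0.219, 0.191 to 0.249) and ran from 21.4 CPM in cluster 7 to 116 in cluster 6. Both were lower in cluster 0 than in any of the other 14 control clusters. They were also below all 16 DES epithelial clusters (912 to 2583 CPM and 44.0 to 302 CPM). RP23-81C12.3 was still found in every cluster 0 cell without thinning and in 77.8% after it, against 96.5% in cluster 1, and for Yam1 the thinned shares were 5.44% and 31.2% (36.1 and 78.9% without thinning). In control stromal cells the thinned shares were 96.2% for RP23-81C12.3 and 23.3% for Yam1 (99.7 and 46.3% without thinning), above cluster 0 in the thinned cells. Over the cells of cluster 0 neither followed the immediate-early share, with rho of -0.03 for RP23-81C12.3 and -0.09 for Yam1.

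The other 9 lower genes differed by less. Lrg1, a secreted glycoprotein, stood at 47.1 against 94.8 CPM, the diamine oxidase gene Aoc1 at 156 against 281, the secreted chaperone clusterin (Clu) at 117 against 198 and the claudin Cldn10 at 101 against 169. Cldn4, another claudin of tight junctions, went the other way at 357 against 123 CPM. The remaining 5 lower genes, Mphosph8, Emb, Fkbp11, Srek1ip1 and Cdo1, had ratios from 0.61 to 0.654. Of all 11 lower genes, 5 were below every other luminal cluster, and single clusters weighed on some of the rest. Aoc1 stood at 1024.5 CPM in cluster 10 but at 39.5 in cluster 5, which is below cluster 0. Cldn10 stood at 483 CPM in cluster 10. Cdo1 stood at 39.7 CPM in cluster 0 and at 179.9 in cluster 5. All 12 mitochondrially encoded genes that reached 50 CPM were below the other luminal clusters, with a median ratio of 0.737, and none reached 1.5-fold. Of 76 ribosomal protein genes none passed the limit, beside 4.01% higher and 0.387% lower of all genes, and their median ratio was 1.10.

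**Figure D4:**
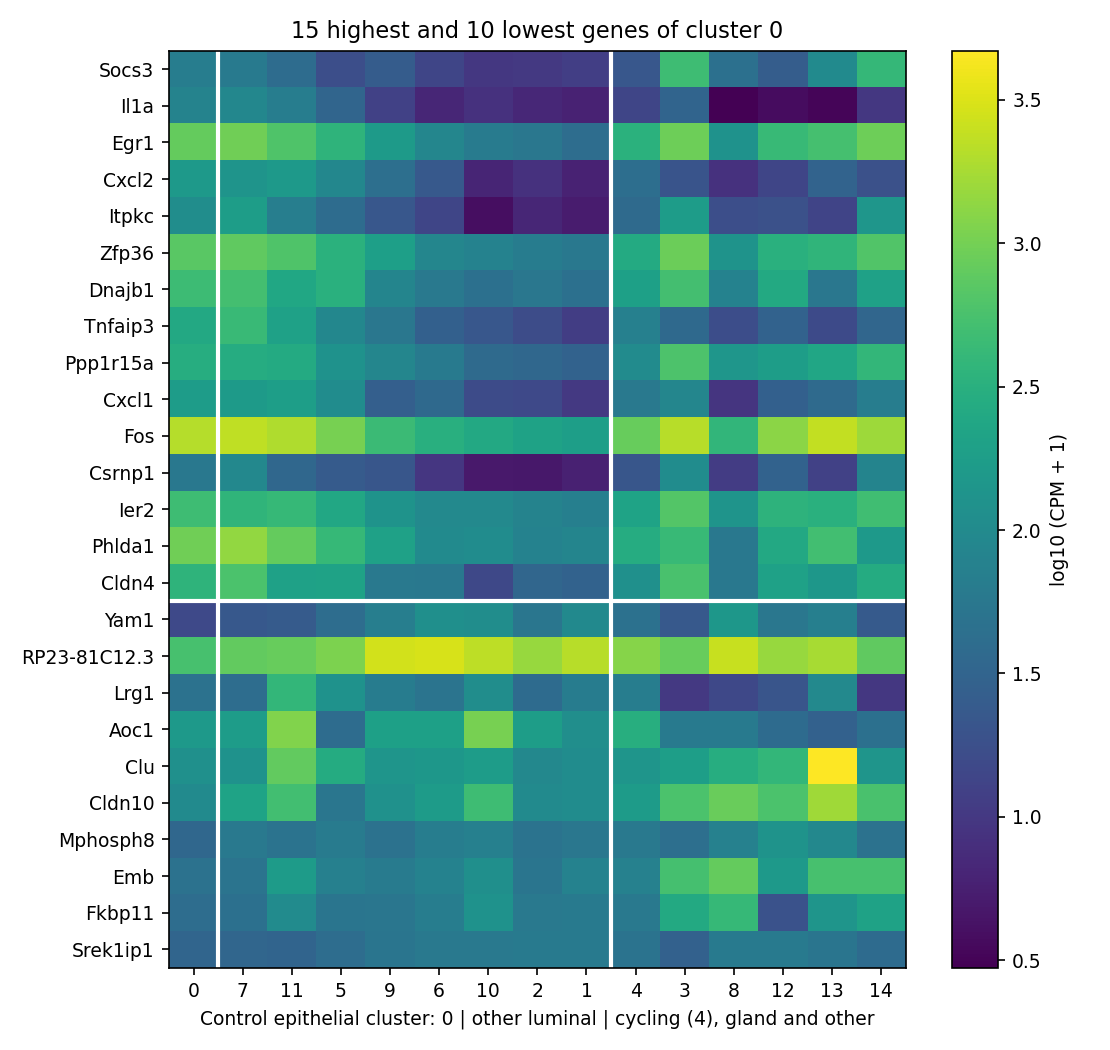
The colour of each square is the log10 of CPM plus 1 of a gene (down the side, the 15 highest ratios above the line and the 10 lowest under it) in each of the 15 control epithelial clusters, with cluster 0 at the left and the other luminal clusters beside it. Among the luminal clusters the higher genes are high in clusters 0, 7 and 11, and RP23-81C12.3 and Yam1 are lowest in cluster 0 of all 15.

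Of 4 simple keratins, 6 desmosome genes and 22 actin cytoskeleton genes at 50 CPM or more, none passed the limit in either direction. Over all 2842 genes 4.01% were higher and 0.387% lower, so that lists of this size with none past the limit are near the share of all genes. The same held for 8 luminal genes of the study, 3 of the luminal epithelium list, 6 epithelial genes and 4 mucins, whose sums had ratios of 0.962, 1.07, 1.11 and 1.01. Of 7 tight junction genes, Cldn4 was higher and Cldn10 lower. Estrogen-responsive uterine genes summed to 14409 against 17411 CPM (ratio 0.828), with none of 13 past the limit, and were lowest in cluster 0 of the 9 luminal clusters. Single clusters differed more, with 23330 CPM in cluster 10 and 27415 CPM in cluster 11. The luminal genes of the study summed to 803 CPM in cluster 0 and to 499 CPM in cluster 11. The receptor Esr1 was at 234 against 224 CPM, the iron-binding Ltf at 2168 against 2843 and Lcn2, which binds bacterial siderophores, at 6820.0 against 8978. Of 9 genes associated with cornification, Sprr1a (678 against 356 CPM), Sprr2d (ratio 1.69) and Sfn (ratio 1.64) were at least 1.5-fold higher, while the abundant Sprr2f was at 17645 against 16526 CPM. Genes of the Sprr2 family are near copies of each other, and their reads may be split between them. Cell cycle genes summed to 319.6 CPM, against 3534 in the control cluster where they were highest. Basal genes summed to 6.43 CPM and stem cell genes to 12.9 CPM.

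Clusters 7 and 11 were within 1.5-fold of cluster 0 in the summed immediate-early level and differed from it in single genes, some of them among the 114. The genes of these paired comparisons were picked after their values were seen. Against cluster 7, 26 genes were at least 1.5-fold higher in cluster 0 (0.873% of 2978) and 167 lower (5.61%), and of the 114 genes 2 were higher and 41 lower. Kap, an androgen- and estrogen-regulated kidney and uterus gene, stood at 560.2 against 258 CPM and the keratin Krt84 at 157 against 71.7. The serine proteases Prss28 (1.68 against 80.6 CPM) and Prss29 (10.4 against 207) and the protease inhibitor Spink1 (3.71 against 105) were higher in cluster 7. In cluster 13, where the mature gland list was highest, these 3 genes stood at 15773, 51277 and 17834 CPM. The part of RNA from gland cells in the levels of cluster 7 was not tested.

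Against cluster 11, 159 genes were higher (5.38% of 2953) and 179 lower (6.06%), and of the 114 genes 27 were higher and 5 lower. The water channel Aqp4 stood at 84.0 against 2.13 CPM, the serine protease inhibitor Serpina1c at 163 against 6.91 and Prap1 at 2846 against 309. Cluster 11 held more of the neutrophil attractant Cxcl5 (3.07 in cluster 0 against 159.7 CPM), the claudin Cldn2 (3.71 against 124), the secretoglobin Scgb3a1 (0.985 against 184) and the calcium-binding Calb1 (4.63 against 105). Against cluster 5, 117 genes were higher (4.07% of 2878) and 127 lower (4.41%), and of the 114 genes 70 were higher and 1 lower, with Kap at 560.2 against 75.6 CPM and Cd74, the chaperone of MHC class II, at 15.6 against 150.3.

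Few genes were higher in clusters 1 and 2 than in cluster 0. Against cluster 1, 205 genes were higher (7.08% of 2895) and 30 lower (1.04%), and against cluster 2, 187 were higher (6.51% of 2871) and 25 lower (0.871%). The largest ratios to cluster 1 were those of Cxcl2 (30.4, 23.3 to 40.4), Itpkc (26.0), a kinase of inositol trisphosphate, Tnfaip3 (24.5) and Fosb (21.0). The lowest were those of Yam1 (0.145) and RP23-81C12.3 (0.256). Serpina1c was lower in cluster 0 than in cluster 2, at 163 against 415 CPM. Against cluster 6, 198 genes were higher (6.81%) and 58 lower (2%), against cluster 9, 134 (4.51%) and 66 (2.22%), and against cluster 10, 289 (9.71%) and 181 (6.08%). Of the 114 genes, 113, 106 and 114 were among the higher ones in these comparisons.

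The cells of cluster 0 lay near each other with and without the early genes. On 30 principal components of 2000 variable genes, 82.1% of the 20 nearest neighbours of a cluster 0 cell were in cluster 0, where the cluster makes up 18.6% of the other cells. Leaving out the 139 genes of the 8 lists of stimulus-responsive genes gave 75.9%, and leaving out 71 further genes past the 1.5-fold limit, an alternative chosen after seeing the data, gave 65.1%. The share of neighbours in cluster 1 rose across these settings from 1.68 through 4.65 to 11.2%, and that in cluster 2 from 2.03 through 4.06 to 7.76%, while cluster 7 held between 5.17 and 6.13%. Since the cluster was formed on these counts, the shares are a description of it.

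In the authors' clustering of both libraries together, 464 of the 482 cells (96.3%) fell in integrated cluster 1. That cluster held 817 control cells and no DES cell, and its other control cells were mostly 130 of cluster 7, 96 of cluster 11 and 70 of cluster 5. Across the 16 DES epithelial clusters the immediate-early list ran from 1788 to 11209 CPM, with DES cluster 9 above control cluster 0. Cluster 0 was above all 16 for NF-kB regulators (452 to 1156 CPM), MAP kinase feedback inhibitors (197 to 882) and sterol genes (372 to 1129). Fos stood at 2519 CPM in DES cluster 9, above the 2081 CPM of control cluster 0. Egr1 reached at most 544 CPM and Tnfaip3 at most 17.5 CPM in a DES cluster. Age and strain are shared by the 2 libraries, and library and treatment cannot be told apart.

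Other cell types of the same CO library also carried the immediate-early list. It summed to 8765 CPM in myeloid cells, 8103 in endothelial cells, 5929.6 in stromal cells and 2355 in the cells named for Ctla2a, all below the 9995 CPM of cluster 0. NF-kB regulators were above cluster 0 in myeloid cells (3197 CPM) and lymphocytes (2781). The part of dissociation in these levels was not tested. In the whole spatial sections, which were not dissociated and mix all cell types, Fos stood at 60.9 and 10.2 CPM in the 2 CO sections and at 19.9 and 16.9 in the 2 DES sections. Egr1 stood at 8.64 and 11.2 CPM in CO and at 15.9 and 8.6 in DES. The groups overlapped for Fos and Egr1. The immediate-early list stood at 1881 and 1429 CPM in CO and at 2850.1 and 2476 in DES, and NF-kB regulators at 676 and 699.8 in CO and at 967 and 924 in DES. For both lists the DES sections were above the CO sections without overlap, a difference that was not tested and that 2 sections per group cannot tell from chance. The share of all genes that separate in this way was not computed. In the single-cell libraries both lists were lower in DES epithelial and mesothelial cells than in CO ones, and higher in DES lymphocytes and myeloid cells. The immediate-early list stood at 3135 CPM in DES against 6333 in CO epithelial cells, and at 13657 against 8765 in myeloid cells. By the paper's account the DES sections were picked to hold adenocarcinoma, and the second CO section had a tissue fold. Epcam stood at 451 and 256 CPM in CO and at 435 and 501 in DES. The sections overlapped between CO and DES for early-response regulators (1967 and 1771 against 2111 and 1877 CPM), cytokines and chemokines (964 and 836 against 1184 and 950.3) and MAP kinase feedback inhibitors (388 and 257 against 281 and 314). A level over all spots is not a level of cluster 0.

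A search of RefSeq promoters gave the letter matches shown above. The window ran from 250 bases before to 50 after each start, both strands were read, and 87 of the 114 higher genes had 110 promoters in the table. An NF-kB site was matched in 16.4% of these 110 promoters, in 5.61% of the 2782 promoters of the genes compared and in 4.51% of all 32851 promoters. The 16.4% is 18 promoters, of which 9 belong to the 27 promoters of higher genes in the immediate-early and NF-kB lists. Those 27 were drawn in part from a list of NF-kB genes, so their NF-kB share is not a separate check. A gene with several starts counts more than once. The cyclic AMP response element TGACGTCA was matched in 7.27, 3.45 and 1.79%, the AP-1 site TGACTCA in 8.18, 3.77 and 5.20%, the EGR site GCGTGGGCG in 1.82, 1.08 and 0.612% and the CArG box in 3.64, 1.58 and 1.63%. For the EGR site and the CArG box, 2 and 4 of the 110 promoters had a match. Among the 27 promoters, the cyclic AMP response element was matched in 1, the AP-1 site in 2, the EGR site in 1 and the CArG box in 0. These motifs can overlap, a match is a run of letters, and no binding was measured.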

How the data were processed

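Single-cell counts of the CO and DES libraries (32387 and 16312 cells, 24077 genes) and 4 spatial sections were used. The deposited counts are UMIs per gene, which the authors made with bcl2fastq 2.20.0.422, Cell Ranger 3.0.1 and, for sections, Space Ranger 1.2.2 on mm10, without normalization. The authors removed doublets with scran, checked barcode swapping with DropletUtils, and clustered cells with Seurat after SCTransform. The deposited saturation is a fraction that the authors give for each cell. Groups came from the GEO labels and clusters from the authors' metadata.

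Summed UMIs of a cluster were divided by its total to give CPM, with intervals that are exact Poisson for levels, conditional binomial for ratios and Clopper-Pearson for shares, at 95%. A gene was compared at 50 CPM or more in either group and counted at 1.5-fold. Named genes were the 15 highest and 10 lowest ratios, with the leading members of 35 lists. The members and lists were chosen with earlier results of these data known. Shares of cells were taken after thinning to 3000 UMIs (seed 20230). Neighbours were found with scanpy 1.11.5 on values scaled to 10000 per cell, for genes seen in at least 10 cells. Gene positions were taken from GENCODE M21 (GRCm38), and promoters come from RefSeq on GRCm38.p6, where no run was printed for both Tnfaip3 starts and 3 of 4 Csrnp1 starts, whose upstream bases lie mostly or wholly inside the annotated gene. Python 3.11.15, numpy 2.4.6, pandas 2.3.3, scipy 1.17.1 and scikit-learn 1.9.0 were used, and the scripts were tested on simulated data. Alternatives changed the filter, the fold, the totals, the pooling, the UMI limits and the thinning depth.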

Additional observations from a re-analysis of the deposited data

How the results depend on the processing

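The count of genes at least 1.5-fold higher in cluster 0, 114, became 206 with a minimum of 10 CPM, 39 with 200 CPM, 59 at 2-fold and 1319 with no filter beyond 3 UMIs, as the construction of each alternative implies. The count of lower genes, 11, became 76, 2, 3 and 1933 under these settings, 20 with totals that leave out mitochondrial genes and the 20 most abundant genes, 18 with equal weight for each cluster, and 57 against all 14 other clusters. The cause was not tested for the last 3. The immediate-early ratio, 2.26, was 2.44 as a mean over cells, 2.19 with those totals, 1.95 with equal weight, 1.88 against all 14 other clusters and 2.55 in cells of 10000 to 40000 UMIs, where cluster 0 held 17.1% of 1782 cells rather than 18.7%. The share of cells with a Fos UMI, 96.4%, was 98.9% at 5000 UMIs and 100% without thinning. For 9 other lists (early-response, NF-kB, cytokine, MAP kinase feedback, sterol, heat shock, estrogen-responsive, luminal epithelium and epithelial genes) 45 alternatives were run and 0 reversed a ratio, and the remaining lists were not run under them. The share of neighbours in cluster 0 stayed between 80.1 and 83.3%, and between 72.6 and 78.5% without the response lists. No paired analysis was possible because no result comes from a test and each condition has 1 library. The 2 pooled CO mice cannot be separated, and depth limits what shares of low genes such as Cxcl2 and Yam1 can show.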
